A study of Mus musculus with 18 samples.

Results

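The latent TGF-beta binding proteins (Ltbp1, Ltbp2, Ltbp3 and Ltbp4), the TGF-beta ligands (Tgfb1, Tgfb2 and Tgfb3), their receptors (Tgfbr1 and Tgfbr2) and the TGF-beta-induced matrix protein Tgfbi were followed in mouse carotid arteries before and after wire injury. These 10 genes were chosen by name, of 35655 genes in the table, with earlier results of these data known. The same holds for the gene lists below, so shares of all genes set beside them are a description. All 10 were among the 10312 genes with enough counts to be tested. RNA came from laser-dissected frozen sections of the carotid of WT C57/BL6 mice, all adult males, and was sequenced by MACE, a method that captures the 3′ end of each transcript. Day 0, labelled pre-injury, had 4 libraries, and after the injury day 7 had 4, day 14 had 3, day 21 had 4 and day 28 had 3. The dissected area held the outer elastic lamina together with any neointima, so the day 0 libraries are of a vessel wall that has none yet. The study's methods describe injury of the left carotid with the right as control, its figure legend calls the dissected samples pooled, and 3 of the numbers in the labels occur on both day 0 and day 21. Whether those pairs are vessels of the same mouse is not stated, nor whether the replicates of a day are separate mice, so p-values measure the spread between these samples.

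TGF-beta is secreted as an inactive complex in which the cytokine stays bound to its own propeptide. LTBP1, LTBP3 and LTBP4 bind this latent complex and tether it to fibrillin microfibrils and fibronectin in the matrix, whereas LTBP2 is a microfibril protein that does not bind latent TGF-beta. LTBP4 also takes part in elastic fibre assembly, the process that gives the arterial media its recoil. Released TGF-beta binds TGFBR2, which recruits and phosphorylates TGFBR1, and SMAD proteins then carry the signal to the nucleus. In arteries the pathway is known for contractile gene expression in smooth muscle cells and for matrix production.

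The libraries held 440675 to 878310 counts, and libraries of the same day correlated at 0.705 to 0.896 (log2 CPM over the genes tested, 24 pairs). Levels are given in CPM, which are counts scaled to the library's TMM-normalised total over the genes tested, with the SD over the libraries of a day. Each day was compared by edgeR's quasi-likelihood test in 1 fit over 18 libraries, and genes with a p under 0.05 after Benjamini-Hochberg adjustment across the tested genes were called. Markers of several cell types moved with the days. The summed level of 14 contractile smooth muscle genes was 36779 to 42975 CPM per library on day 0, 1752 to 7667 on day 7, 8164 to 25790 on day 14, 9163 to 24144 on day 21 and 22559 to 31876 on day 28. The summed level of 16 macrophage genes was 142 to 603 CPM on day 0, when Mpeg1 and Itgam were at 0 in every library, 5776 to 8280 on day 7, 1577 to 3588 on day 14, 2245 to 3952 on day 21 and 985 to 1353 on day 28. Of the tested markers, 13 of 13 contractile genes were lower and 16 of 16 macrophage genes higher on day 7 than on day 0. Of 14 fibroblast markers 8 were lower and 2 higher on that day. Of the other tested markers, 5 of 12 endothelial, 8 of 10 proliferation, 3 of 3 neutrophil, 4 of 5 red blood cell, 1 of 2 platelet and 1 of 5 peripheral nerve genes were higher, and 1 endothelial and 1 of 2 adipocyte genes were lower. None of 1 T cell and 2 skeletal muscle genes tested was called on day 7. Of all genes tested, 11.3% were higher and 8.53% lower on that day. A count of 1 in a list is near those shares or rests on too few genes to be set beside them. In such mixed tissue, fewer cells of a type and less RNA per cell cannot be told apart, and the part of cell makeup in the results that follow was not tested.

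On day 7 the members moved in both directions. Ltbp2 and Tgfbi rose, while Ltbp1, Ltbp4, Tgfb2, Tgfb3 and Tgfbr1 fell. The 2 members called higher compare with 11.3% of all genes tested, and the 5 called lower with 8.53%. The median log2 fold change of the 10 members was -0.59, against 0.07 over all genes tested. Ltbp2 was higher than on day 0 on all 4 later days, and no other member was called against day 0 on day 14, 21 or 28. Over the test of any difference between the days, 6 members were called (Ltbp1, Ltbp2, Ltbp4, Tgfb2, Tgfb3 and Tgfbi), beside 18% of all genes tested, and Tgfbr1 (adjusted p = 0.0546, edgeR) and Ltbp3 (adjusted p = 0.0618, edgeR) did not pass the threshold.

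**Figure D1:**
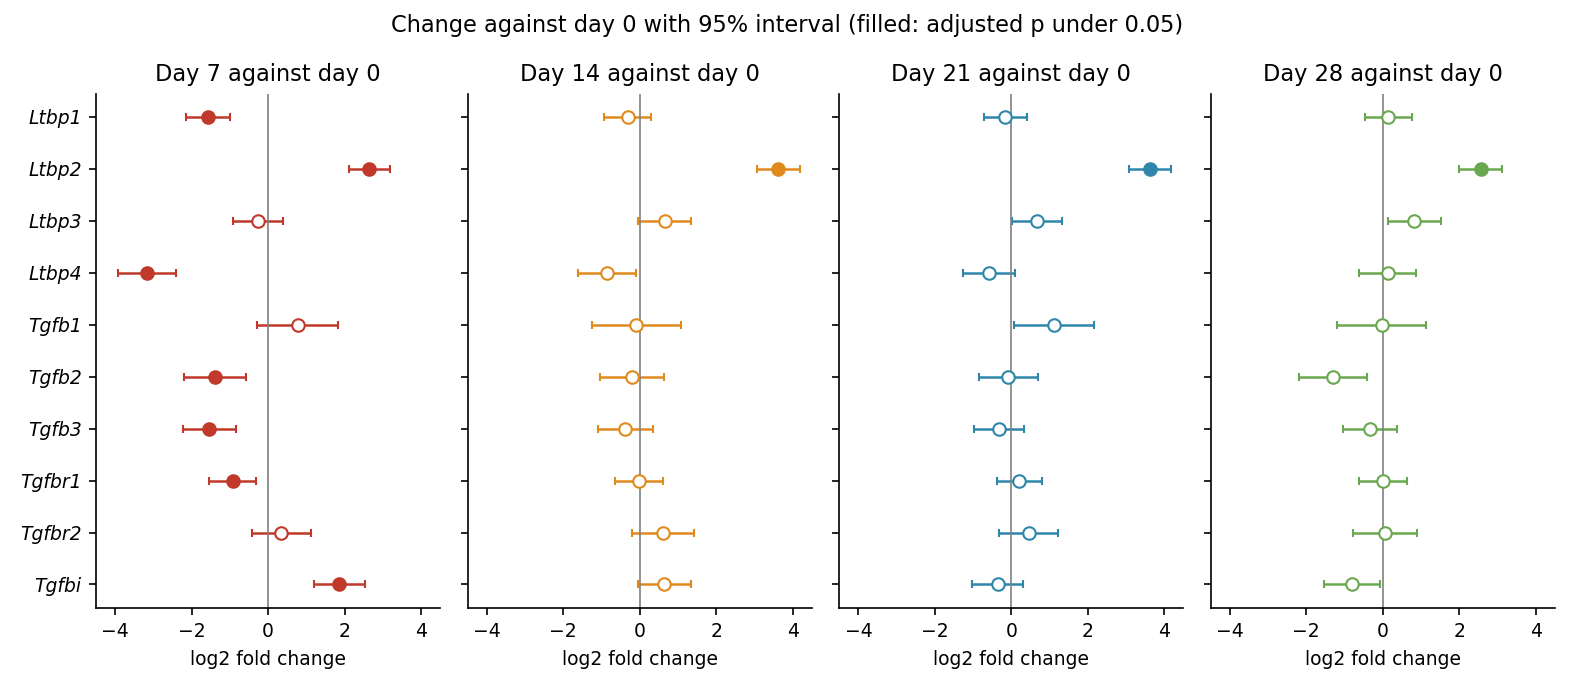
Log2 fold change of each member on days 7, 14, 21 and 28 against day 0 (x axis, log2 scale, 1 panel per day), with the 95% confidence interval as a bar, and filled points for an adjusted p under 0.05 (edgeR's quasi-likelihood test over all genes). Points are filled for 7 members on day 7 and for Ltbp2 alone on the other 3 days.

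Ltbp2, on chromosome 12 from 84829986 to 84923306 (minus strand, GRCm39, as for all positions here), was the member that stayed high. Its level was 52.1, 56.2, 59.6 and 38.1 CPM in the 4 libraries of day 0 and 242, 354, 277 and 423 CPM on day 7. It was 489, 778 and 647 CPM on day 14, 556, 866, 557 and 579 CPM on day 21, and 276, 362 and 275 CPM on day 28. Every library after injury lay above every library of day 0. The mean rose from 51.5 ± 9.47 CPM (n = 4, SD) to 324 ± 80.8 CPM (n = 4, SD) on day 7, which was 6.28-fold in the fit (log2 fold change 2.65 with standard error 0.26, adjusted p = 1.16e-07, edgeR). It was 12.4-fold higher than day 0 on day 14 (adjusted p = 9.95e-09, edgeR) and on day 21 (adjusted p = 5.07e-09, edgeR), and 5.89-fold higher on day 28 (adjusted p = 9.62e-06, edgeR). By p-value, Ltbp2 ranked 1 of all 10312 genes tested on days 14, 21 and 28 and 19 on day 7. These calls held in every alternative fit, over which the adjusted p was at most 0.000426.

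Within the time after injury Ltbp2 first climbed further and then came down. Day 14 exceeded day 7 by 0.98 on the log2 scale (adjusted p = 0.0431, edgeR), and so did day 21 (adjusted p = 0.0103, edgeR). The step from day 7 to day 14 was lost in 13 of 29 alternatives. These include the threshold of 0.01 on the same fit, which an adjusted p of 0.0431 (edgeR) cannot pass. Among the others were the fits without day 7 replicate 1, 2 or 3, without any 1 of the 3 day 14 replicates, or without day 0 replicate 2 or 3 or day 21 replicate 4 (adjusted p up to 0.185). Days 14 and 21 had close mean levels, 638 ± 145 CPM (n = 3, SD) and 640 ± 151 CPM (n = 4, SD), with a 95% interval of the log2 difference from -0.52 to 0.52. All 3 libraries of day 28 lay below all 4 of day 21, a log2 difference of -1.07 that did not pass the threshold (adjusted p = 0.0530, edgeR). It passed, among others, in DESeq2 (adjusted p = 0.00877) and without day 7 replicate 4 (adjusted p = 0.0349, edgeR). These 2 fits called 329 and 115 of all genes between those days, in place of 70. Between day 28 and day 7 the log2 difference was -0.09, with a 95% interval from -0.62 to 0.43.

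**Figure D2:**
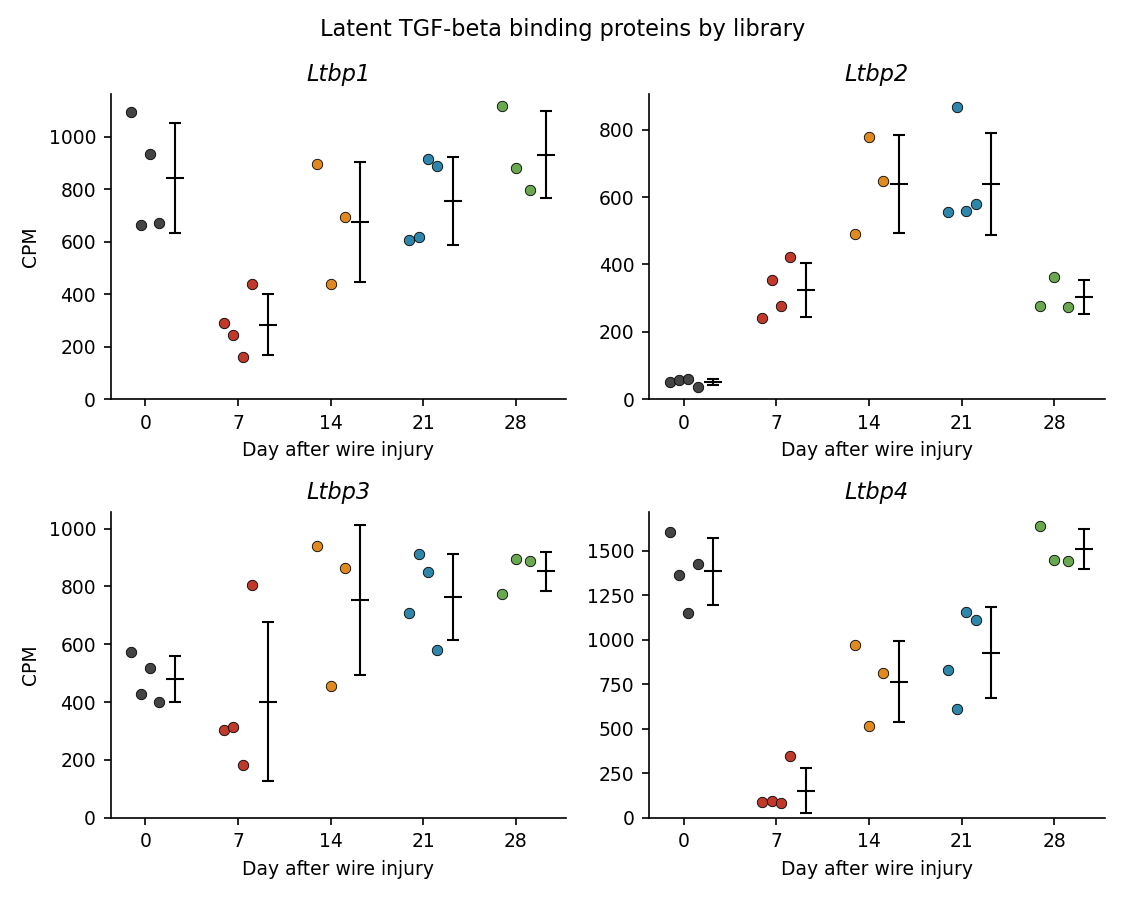
Level of each latent TGF-beta binding protein (y axis, CPM, linear) in every library by day after injury (x axis), with the mean and SD of each day as a bar. Ltbp2 was lowest on day 0 and highest on days 14 and 21, whereas Ltbp1 and Ltbp4 had their lowest libraries on day 7, where 1 Ltbp4 library (345 CPM) sat apart from the other 3 (81.7 to 95.2 CPM).

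Ltbp4, on chromosome 7 from 27004086 to 27037117 (minus strand), is the carrier that also serves elastic fibre assembly, and of the 5 members that fell on day 7 it fell the furthest. Its level was 1602, 1360, 1149 and 1425 CPM on day 0 and 89.0, 95.2, 81.7 and 345 CPM on day 7. Even the highest library of day 7, replicate 4, was below the lowest of day 0, although it lay well above its 3 neighbours. The fit put day 7 at 9.0-fold lower (log2 fold change -3.17 with standard error 0.36, adjusted p = 1.07e-06, edgeR). Without day 7 replicate 4, which also held the most contractile smooth muscle signal of its day (7667 CPM), the log2 fold change was -3.97 (adjusted p = 3.06e-09, edgeR). The level was then 968, 515 and 812 CPM on day 14, 832, 612, 1158 and 1110 CPM on day 21, and 1636, 1447 and 1443 CPM on day 28. Ltbp4 rose from day 7 to each of these days, by 4.97-fold, 6.03-fold and 9.81-fold (adjusted p = 0.00160, 7.62e-05 and 8.93e-06, edgeR). Without day 7 replicate 4 these log2 fold changes were 3.11, 3.40 and 4.09 (adjusted p = 4.85e-07, 5.62e-08 and 3.10e-09, edgeR), in place of 2.31, 2.59 and 3.29. The libraries with the most contractile smooth muscle signal on day 14 (replicate 1, 25790 CPM) and on day 21 (replicate 3, 24144 CPM) were also the highest in Ltbp4 on those days. The day 28 libraries lay within and just above the range of day 0, with a log2 difference of 0.12 (95% interval -0.61 to 0.86). All 3 day 14 libraries were below all of day 0 (log2 difference -0.86), which did not pass the threshold (adjusted p = 0.206, edgeR) but did without day 7 replicate 4 (adjusted p = 0.0257, edgeR) and in 3 other fits.

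Ltbp1, on chromosome 17 from 75312519 to 75699507 (plus strand), is the most studied carrier of the latent complex, and it followed a shallower course of the same shape. Its level was 1096, 666, 935 and 673 CPM on day 0, and 290, 244, 161 and 439 CPM on day 7. The groups did not overlap, and the fit gave 2.96-fold lower on day 7 (log2 fold change -1.57 with standard error 0.28, adjusted p = 0.000248, edgeR). On day 14 the libraries were at 896, 439 and 694 CPM, on day 21 at 606, 618, 914 and 889 CPM, and on day 28 at 1117, 881 and 799 CPM. All 3 days overlapped day 0, and the log2 differences from it were -0.32, -0.16 and 0.15. Ltbp1 rose from day 7 by 2.38-fold to day 14 (adjusted p = 0.0261, edgeR), 2.66-fold to day 21 (adjusted p = 0.00223, edgeR) and 3.28-fold to day 28 (adjusted p = 0.000404, edgeR). The first of these was lost without day 7 replicate 1, 2 or 3 and without day 14 replicate 1 or 3 (adjusted p up to 0.267).

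Ltbp3, on chromosome 19 from 5790932 to 5808669 (plus strand), is a carrier known for its role in bone and tooth growth, and it was not called on any day against day 0. Its level was 573, 429, 519 and 402 CPM on day 0, 304, 313, 183 and 806 CPM on day 7, 939, 457 and 865 CPM on day 14, 710, 912, 852 and 579 CPM on day 21, and 773, 895 and 888 CPM on day 28. Day 7 replicate 4 was the highest of its day by far, and the same library held the most contractile smooth muscle signal of day 7 (7667 CPM, against 1752 to 3907 CPM in the other 3). Without it Ltbp3 was called lower on day 7 (log2 fold change -0.86, adjusted p = 0.0214, edgeR), in place of -0.26 with all libraries (adjusted p = 0.658, edgeR). All libraries of days 21 and 28 were above all of day 0, with log2 differences of 0.67 and 0.83 that did not pass the threshold (adjusted p = 0.214 and 0.237, edgeR). For day 21 the threshold was passed when the 3 numbers shared with day 0 were fitted as pairs (adjusted p = 0.0288, edgeR). It was also passed without pairs, in the fit of only the 2 days. Ltbp3 was 2.12-fold higher on day 28 than on day 7 (adjusted p = 0.0322, edgeR), a call lost without day 7 replicate 1, 2 or 3 or day 28 replicate 2 or 3 (adjusted p up to 0.0965). Without day 7 replicate 4 this log2 difference was 1.68 in place of 1.08. The last exon of Tgfb3 overlaps Ttll5 on the opposite strand, and that of Ltbp4 overlaps the non-coding Gm71703. Whether the counting used the strand is not given in the sources used here, so reads of such a pair may be mixed.

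The counts of the 4 genes within a library can be set beside each other without any scaling between libraries. A share depends on the other Ltbp genes too, so it does not give the direction of a gene's own level. Of all Ltbp counts, Ltbp4 took 50.4% ± 5.90 (n = 4, SD) on day 0 and 12.0% ± 3.60 (n = 4, SD) on day 7. Its share was then 26.6% ± 2.94 (n = 3, SD), 29.9% ± 6.61 (n = 4, SD) and 41.9% ± 1.39 (n = 3, SD) on days 14, 21 and 28. Ltbp2 took 1.89% ± 0.408 (n = 4, SD) on day 0, 30.4% ± 8.36 (n = 4, SD) on day 7, 23.9% ± 10.6 (n = 3, SD) on day 14, 20.9% ± 5.56 (n = 4, SD) on day 21 and 8.48% ± 1.47 (n = 3, SD) on day 28. The ranges of both genes on day 7 lay apart from those of day 0. The share of Ltbp1 moved least, from 30.3% ± 4.43 (n = 4, SD) on day 0 to between 23.4% and 25.8% on the mean of each later day. Ltbp3 held 17.4% ± 1.52 (n = 4, SD) on day 0 and 32.5% ± 5.78 (n = 4, SD) on day 7. On the log2 scale, the ratio of Ltbp2 to Ltbp4 counts was -4.74 ± 0.41 (n = 4, SD) on day 0 and 1.34 ± 0.72 (n = 4, SD) on day 7. On day 28 this ratio was -2.32 ± 0.29 (n = 3, SD), still above day 0 in every library. From day 0 to day 7 the share of Ltbp3 rose while its mean level went from 481 to 402 CPM. From day 7 to day 14 the share of Ltbp2 fell while its mean level went from 324 to 638 CPM. MACE counts 1 end per transcript, yet capture can differ between genes, so the shares are read only over time, and not as levels.

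**Figure D3:**
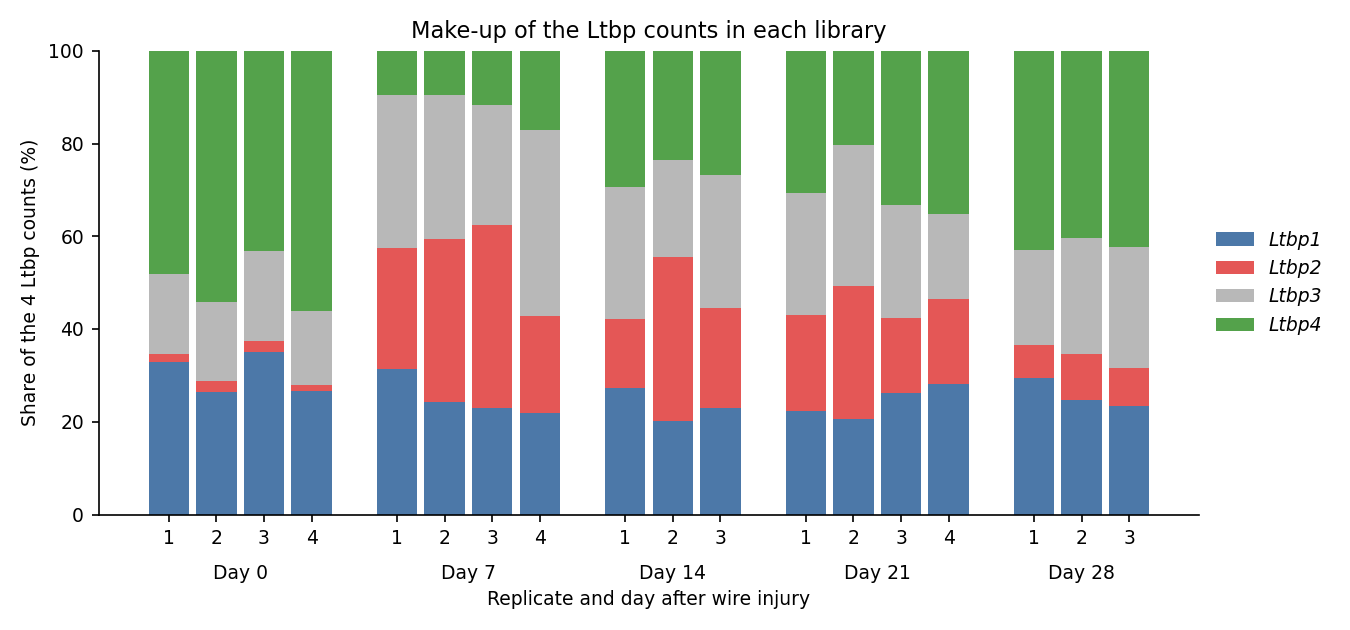
Share of each gene in the summed counts of Ltbp1, Ltbp2, Ltbp3 and Ltbp4 (y axis, percent) in each of the 18 libraries (x axis, by day and replicate). Ltbp4 held 43.2% to 56.2% on day 0 and 9.46% to 17.2% on day 7, and Ltbp2 held 1.5% to 2.24% on day 0 and 21.0% to 39.4% on day 7.

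The start regions of the 3 genes that changed are shown because from day 0 to day 7 Ltbp1 and Ltbp4 fell while Ltbp2 rose. The sequences are RefSeq promoters (table of build GRCm38.p6) that matched GRCm39 exactly and once, cut where the annotated gene begins. They lie at chr17:75312274-75312518 on the plus strand for Ltbp1, at chr12:84923307-84923515 on the minus strand for Ltbp2 and at chr7:27037118-27037287 on the minus strand for Ltbp4, the first of its 3 promoters in the table. They are written 5′ to 3′, and capitals mark the SMAD box CAGAC or, where it lies on the other strand, its reverse complement.
Ltbp1: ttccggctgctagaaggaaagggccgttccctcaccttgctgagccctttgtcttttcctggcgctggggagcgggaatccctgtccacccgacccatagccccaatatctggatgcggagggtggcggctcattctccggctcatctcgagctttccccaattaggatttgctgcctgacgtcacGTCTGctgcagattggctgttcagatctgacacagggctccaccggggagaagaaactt
Ltbp2: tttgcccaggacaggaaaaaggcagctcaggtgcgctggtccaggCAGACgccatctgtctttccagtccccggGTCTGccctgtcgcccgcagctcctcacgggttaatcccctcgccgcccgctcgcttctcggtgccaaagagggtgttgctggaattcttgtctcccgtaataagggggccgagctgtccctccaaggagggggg
Ltbp4: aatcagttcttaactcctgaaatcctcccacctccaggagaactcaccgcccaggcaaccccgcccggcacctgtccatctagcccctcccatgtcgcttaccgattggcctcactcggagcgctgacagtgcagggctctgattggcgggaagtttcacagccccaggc
The Ltbp2 stretch holds 2 SMAD boxes, the Ltbp1 stretch 1 and the Ltbp4 stretch 0. The Ltbp1 stretch is from the first of its 2 promoters, and the second holds 2 SMAD boxes in its 250 bases. The other Ltbp4 promoters hold 0. In the 250 bases before each start, on both strands, a SMAD box was found in 8 of the 13 promoters that the table holds for 9 members, and in 42.2% of all 32851 promoters. The 8 belong to 7 members (Ltbp1, Ltbp2, Ltbp3, Tgfb2, Tgfbi, Tgfbr1 and Tgfbr2). Ltbp2 and Tgfbi rose and Ltbp1, Tgfb2 and Tgfbr1 fell on day 7, so members with the letters moved both ways. The SMAD palindrome GTCTAGAC (in 0.167% of all promoters), the AP-1 site TGANTCA (6.75%), the TEAD site GGAATG (12.6%) and the CArG box (1.47%) were found in none of the 13 member promoters, which says only that these letters are not in this window. Such matches are a description of the sequence, and binding was not measured here.

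Among the ligands, Tgfb2 and Tgfb3 fell on day 7 and Tgfb1 was not called on any day. Tgfb2, on chromosome 1 from 186354985 to 186438294 (minus strand), is a ligand best known for heart and vessel development, and was at 93.8, 130, 106 and 99.7 CPM on day 0 and at 14.2, 39.5, 51.8 and 58.1 CPM on day 7. The groups lay apart, and the fit gave 2.62-fold lower (log2 fold change -1.39 with standard error 0.39, adjusted p = 0.0127, edgeR). On day 14 Tgfb2 was at 147, 68.8 and 63.9 CPM, on day 21 at 93.4, 115, 113 and 86.1 CPM, and on day 28 at 76.1, 21.5 and 32 CPM. It was 2.48-fold higher on day 21 than on day 7 (adjusted p = 0.0422, edgeR), a call that was lost without any 1 of the 4 day 21 replicates or without day 7 replicate 1, 2 or 3 (adjusted p up to 0.128). All 3 libraries of day 28 were below day 0 and below day 21. The log2 difference from day 0 was -1.30 (adjusted p = 0.142, edgeR) and became -1.99 (adjusted p = 0.0177, edgeR) without day 28 replicate 1, when the difference from day 21 also passed the threshold (adjusted p = 0.0314, edgeR). Without that library 480 of all genes were called against day 0, in place of 138, and 410 against day 21, in place of 70.

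Tgfb3, on chromosome 12 from 86102756 to 86126301 (minus strand), is a ligand studied in palate fusion and scar formation, and was at 127, 146, 164 and 95.8 CPM on day 0. On day 7 it was at 21.4, 35.9, 57.8 and 67.8 CPM, again with no overlap, and 2.90-fold lower (log2 fold change -1.53 with standard error 0.33, adjusted p = 0.00163, edgeR). It returned to 88.0, 79.4 and 140 CPM on day 14, 110, 115, 97.0 and 107 CPM on day 21, and 118, 137 and 60.7 CPM on day 28. Tgfb3 was 2.34-fold higher on day 21 (adjusted p = 0.0245, edgeR) and 2.29-fold higher on day 28 (adjusted p = 0.0242, edgeR) than on day 7. The day 21 call was lost without day 7 replicate 1 or 2 or day 21 replicate 1 (adjusted p up to 0.0896). The day 28 call was lost without day 7 replicate 1 or 2 or day 28 replicate 1 or 2 (adjusted p up to 0.126).

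Tgfb1, on chromosome 7 from 25386390 to 25404506 (plus strand), is the ligand made by most cell types and stored in platelets, and it rested on only 5 to 56 counts per library. It was at 49.1, 15.5, 14.9 and 17.1 CPM on day 0, 23.1, 52.1, 47.8 and 42.0 CPM on day 7, 16.0, 28.2 and 23.5 CPM on day 14, 66.2, 66.6, 37.8 and 37.2 CPM on day 21, and 47.4, 8.27 and 14.4 CPM on day 28. Day 0 replicate 1 was about as high as the day 7 libraries, while the other 3 were below all of them. The log2 difference was 0.78 on day 7 (95% interval -0.28 to 1.83, adjusted p = 0.342, edgeR) and 1.11 on day 21 (95% interval 0.06 to 2.16, adjusted p = 0.195, edgeR). Without day 0 replicate 1 the day 21 value was 1.71 (adjusted p = 0.0452, edgeR). At this depth the intervals allow an unchanged level as well as a rise of over 3-fold on day 7. The log2 ratio of Tgfb2 to Tgfb1 counts within a library was 2.30 ± 0.94 (n = 4, SD) on day 0 and -0.12 ± 0.51 (n = 4, SD) on day 7. The corresponding ratio of Tgfb3 to Tgfb1 was 2.59 ± 0.92 (n = 4, SD) and 0.08 ± 0.52 (n = 4, SD).

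**Figure D4:**
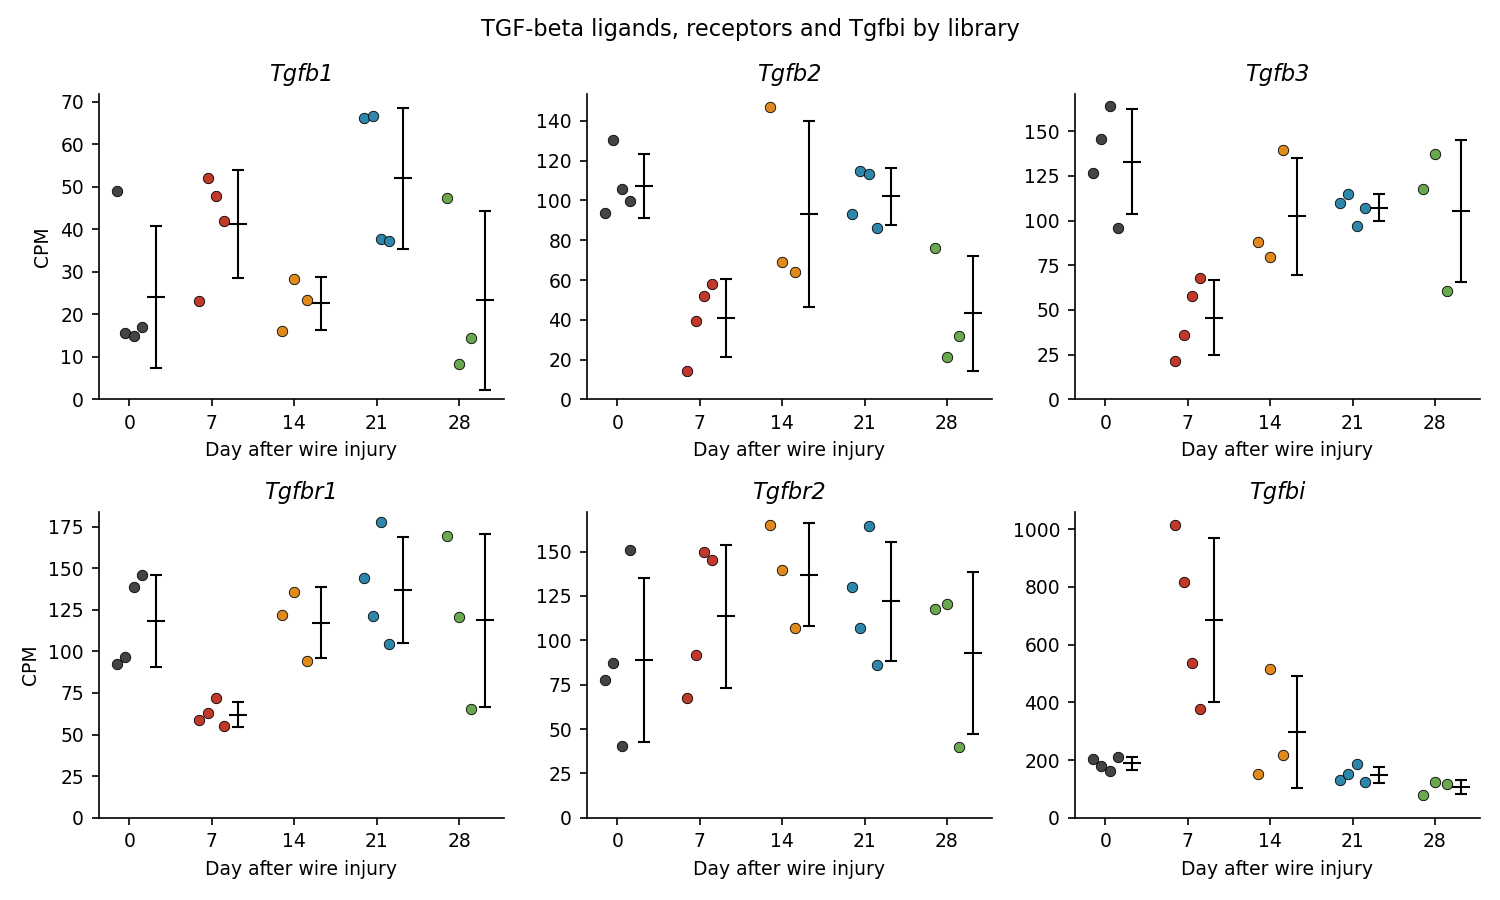
Level of each TGF-beta ligand, receptor and Tgfbi (y axis, CPM, linear) in every library by day after injury (x axis), with the mean and SD of each day as a bar. Tgfb2, Tgfb3 and Tgfbr1 had all 4 day 7 libraries below day 0, Tgfbi had all 4 above it, and the days of Tgfbr2 overlapped.

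Tgfbr1, on chromosome 4 from 47353134 to 47414931 (plus strand), is the type I receptor kinase, and was at 92.3, 96.8, 139 and 146 CPM on day 0 and at 58.8, 62.9, 71.8 and 54.9 CPM on day 7. The groups did not overlap, and the fit gave 1.91-fold lower (log2 fold change -0.93 with standard error 0.29, adjusted p = 0.0253, edgeR). This call was lost without day 0 replicate 3 (adjusted p = 0.0658), day 0 replicate 4 (adjusted p = 0.0727) or day 7 replicate 4 (adjusted p = 0.0536, all edgeR). Tgfbr1 was at 122, 136 and 93.9 CPM on day 14, 144, 121, 178 and 105 CPM on day 21, and 169, 121 and 65.5 CPM on day 28. It was 2.21-fold higher on day 21 than on day 7 (adjusted p = 0.0159, edgeR), which was lost without day 21 replicate 3 (adjusted p = 0.0548). The 1.91-fold difference between day 28 and day 7 (adjusted p = 0.0455, edgeR) was lost in 13 of 29 alternatives. One is the threshold of 0.01 on the same fit, which this adjusted p cannot pass. Others are the fits without any 1 of the 4 day 7 replicates, without day 21 replicate 1 and without day 28 replicate 1 or 2 (adjusted p up to 0.219).

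Tgfbr2, on chromosome 9 from 115913361 to 116004800 (minus strand), is the type II receptor that binds the ligand first, and was not called in any comparison. Its level was 77.4, 87.3, 40.2 and 151 CPM on day 0 and 67.7, 91.6, 150 and 145 CPM on day 7. The libraries were at 165, 139 and 107 CPM on day 14, 130, 107, 164 and 86.1 CPM on day 21, and 118, 121 and 39.9 CPM on day 28. All later days overlapped day 0. The log2 difference on day 7 was 0.35, with a 95% interval from -0.42 to 1.11 that excludes a fall as large as the -0.93 of Tgfbr1, although the difference between the receptors was not tested.

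Tgfbi, on chromosome 13 from 56757336 to 56787375 (plus strand), encodes an adhesive matrix protein that TGF-beta induces in many cells and that macrophages also make, and it rose on day 7. Its level was 204, 178, 162 and 210 CPM on day 0 and 1013, 816, 536 and 378 CPM on day 7. The lowest day 7 library was above every day 0 library, and the rise was 3.63-fold (log2 fold change 1.86 with standard error 0.33, adjusted p = 0.000178, edgeR). It was at 154, 517 and 219 CPM on day 14, 130, 151, 187 and 123 CPM on day 21, and 80.4, 124 and 118 CPM on day 28. The summed macrophage genes on day 7 were at 5776, 8280, 6299 and 6842 CPM in the same order of replicates, with the lowest sum in the library highest in Tgfbi. On day 14 they were at 1577, 3588 and 3141 CPM, with the highest sum in the library highest in Tgfbi. The summed neutrophil genes on day 7 were at 682, 225, 429 and 189 CPM, with the highest sum in the library highest in Tgfbi. The part of these cells in the Tgfbi level was not tested. Against day 7 Tgfbi fell 4.62-fold to day 21 (adjusted p = 0.000171, edgeR) and 6.37-fold to day 28 (adjusted p = 6.10e-05, edgeR). The day 14 libraries were spread, with replicate 2 far above the other 2, and the difference from day 7 (log2 difference -1.21, adjusted p = 0.0858, edgeR) passed the threshold without that replicate (adjusted p = 0.00595, edgeR), without day 7 replicate 4 (adjusted p = 0.0196, edgeR) and in DESeq2 (adjusted p = 0.0262). Of all genes, these fits called 204, 318 and 317 between those days, in place of 171. All 3 libraries of day 28 were below day 0 (log2 difference -0.81, adjusted p = 0.280, edgeR).

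Read by comparison, the members called against day 0 were few once day 7 was passed, while more were called against day 7. Against day 0, the only member called higher on day 14 was Ltbp2, where 4.8% of all genes tested were higher and 1.42% lower. The same count of 1 stood beside 5.92% higher and 2.93% lower on day 21, and beside 0.97% higher and 0.369% lower on day 28. Against day 7, 3 members were higher on day 14 (Ltbp1, Ltbp2 and Ltbp4), where 1.33% of all genes were higher and 0.33% lower. On day 21, 6 were higher than on day 7 (Ltbp1, Ltbp2, Ltbp4, Tgfb2, Tgfb3 and Tgfbr1) and Tgfbi was lower, with 4.03% and 3.23% of all genes. On day 28, 5 were higher than on day 7 (Ltbp1, Ltbp3, Ltbp4, Tgfb3 and Tgfbr1) and Tgfbi was lower, with 6.4% and 8.05% of all genes. These comparisons share the day 7 libraries, as those against day 0 share the day 0 libraries. No member was called between day 21 and day 14, where 0% of all genes were called higher or lower by edgeR, 421 of 10312 had an unadjusted p under 0.05 (Tgfb1 and Tgfbi among the members) and DESeq2 called 30. Between day 28 and day 21, edgeR called no member, 0.107% of all genes higher and 0.572% lower, with an unadjusted p under 0.05 for Ltbp2 and Tgfb2. DESeq2 called Ltbp2, among 329 of all genes where edgeR called 70.

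Other genes of the pathway are described by lists, with counts of calls that were not tested for enrichment. Of 15 genes tested for the handling and activation of latent TGF-beta, 5 were higher on day 7 (Mmp14, Mmp2, Nrros, Plau and Thbs1) and 3 lower (Itgb1, Itgb5 and Tgm2), beside 11.3% and 8.53% of all genes, and the median log2 fold change was 0.53, beside 0.07. The same 5 genes were higher on days 14 and 21, when Tgm2 and, on day 14, Itgb3 were lower, and none was called on day 28. Of all genes, 4.8% were higher and 1.42% lower on day 14, 5.92% and 2.93% on day 21, and 0.97% and 0.369% on day 28. Mmp2, a gelatinase that can release latent TGF-beta, went from 168 ± 69.6 CPM (n = 4, SD) on day 0 to 386 ± 134 CPM (n = 4, SD) on day 7 (log2 fold change 1.2, adjusted p = 0.00256, edgeR) and 814 ± 67.4 CPM (n = 3, SD) on day 14 (log2 fold change 2.28, adjusted p = 2e-05, edgeR). Nrros, which tethers latent TGF-beta on myeloid cells in place of an LTBP, had 0 to 2.39 CPM on day 0, at or under 3 counts in each library, and 25.8 to 88.1 CPM on day 7 (adjusted p = 5.61e-05, edgeR). On day 28 it was at 0 to 6.39 CPM.

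Of 11 further receptors and co-receptors tested, Nrp1 was higher and Bmpr1a and Neo1 were lower on day 7, and Acvr1 and Nrp1 were higher on day 21, beside 11.3% higher and 8.53% lower of all genes on day 7 and 5.92% higher on day 21. Nrp1, a co-receptor of TGF-beta and VEGF, was 1.10 higher on the log2 scale on day 7 (adjusted p = 0.0426, edgeR) and 2.21 higher on day 21 (adjusted p = 0.000566, edgeR). Neo1, a netrin receptor and BMP co-receptor, fell by 1.57 on the log2 scale on day 7 (adjusted p = 0.00444, edgeR). Of 7 SMAD genes, the inhibitory Smad6 was lower on day 7 (log2 fold change -1.97, adjusted p = 0.00440, edgeR), beside 8.53% of all genes. No other SMAD gene was called on any day. Smad7, the inhibitory SMAD that TGF-beta itself induces, was at 23.8 to 195 CPM on day 0 and 1.61 to 44.5 CPM on day 7 (adjusted p = 0.0785, edgeR). Of 13 negative regulators tested, 5 were lower on day 7 (Bambi, Bgn, Fstl3, Pmepa1 and Ski), beside 8.53% of all genes, and Tgif1 was higher, beside 11.3%. Fstl3, which traps activins, stayed lower on all 4 days, from 307 ± 37.6 CPM (n = 4, SD) on day 0 to 62.2 ± 33.8 CPM (n = 4, SD) on day 7 (log2 fold change -2.29, adjusted p = 1.53e-05, edgeR). Pmepa1, a TGF-beta target that restrains SMAD signalling, fell from 838 ± 120 CPM (n = 4, SD) to 283 ± 33.9 CPM (n = 4, SD) on day 7 (log2 fold change -1.56, adjusted p = 2.61e-05, edgeR) and was at 759 ± 136 CPM (n = 4, SD) on day 21. The medians of these lists on day 7 were 0.36 for the receptors, -0.65 for the SMAD genes and -0.73 for the negative regulators, beside 0.07 for all genes (log2 fold change).

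A list of 20 genes known to be induced by TGF-beta, which includes Ltbp2 itself, had 10 members higher and 4 lower on day 7, 10 higher and 1 lower on day 14, 11 higher and 2 lower on day 21, and 3 higher on day 28 (Comp, Ltbp2 and Tnc). Of all genes 11.3% were higher and 8.53% lower on day 7, 4.8% and 1.42% on day 14, 5.92% and 2.93% on day 21, and 0.97% and 0.369% on day 28. Its median log2 fold change was 0.71, 1.41, 1.52 and -0.09 on these days, beside 0.07, 0.05, 0.07 and -0.01 for all genes. The lower ones were Acta2, Itgb5, Pmepa1 and Tagln on day 7, of which Acta2 and Tagln encode contractile proteins of smooth muscle. Col1a1, a chain of type I collagen, rose from 2550 ± 937 CPM (n = 4, SD) on day 0 to 6981 ± 1188 CPM (n = 4, SD) on day 7 (log2 fold change 1.45, adjusted p = 0.00027, edgeR) and 18299 ± 6790 CPM (n = 4, SD) on day 21 (log2 fold change 2.84, adjusted p = 4.05e-07, edgeR), and on day 28 it was at 2995 ± 630 CPM (n = 3, SD), not called. The list mixes matrix genes with contractile genes, and the source cells of either were not resolved here.

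Of 19 tested partners of the LTBPs in microfibrils and elastic fibres, 5 were higher on day 7 (Fbln2, Fbn1, Fn1, Lox and Vcan) and 3 lower (Adamtsl2, Fbln1 and Mfap5), beside 11.3% and 8.53% of all genes, and the list's median log2 fold change was 0.02, beside 0.07. On days 14 and 21 the same 5 and Eln, the gene of elastin, were higher, with Fbln1 lower on day 21, and on day 28 none was higher and Adamtsl2 was lower. Of all genes, 4.8% were higher and 1.42% lower on day 14, 5.92% and 2.93% on day 21, and 0.97% and 0.369% on day 28. Fbln2, a fibulin that links microfibrils to basement membranes, had its highest level on day 7, at 871 ± 227 CPM (n = 4, SD) against 83.5 ± 11.0 CPM (n = 4, SD) on day 0 (log2 fold change 3.38, adjusted p = 6.76e-09, edgeR), and was at 145 ± 39.1 CPM (n = 3, SD) on day 28, not called. Fn1, the fibronectin gene, was at 1230 ± 229 CPM (n = 4, SD) on day 0, 3525 ± 502 CPM (n = 4, SD) on day 7 (log2 fold change 1.52, adjusted p = 7.75e-06, edgeR) and 4921 ± 1040 CPM (n = 3, SD) on day 14 (log2 fold change 2.00, adjusted p = 2.09e-06, edgeR). Of 10 genes tested from a list of other ligands of the superfamily, their secreted antagonists and the procollagen protease Bmp1, 1 was higher (Gdf15) and 1 lower (Bmp2) on day 7, where the median was -0.09 beside 0.07 for all genes, and the ligand Gdf10 and the protease Bmp1 were higher on days 14 and 21. On day 7 these counts are near the 11.3% and 8.53% of all genes. The 2 higher on days 14 and 21 stand beside 4.8% and 5.92% of all genes. Gdf10, a BMP3-related ligand, reached 651 ± 317 CPM (n = 4, SD) on day 21 from 75.7 ± 41.5 CPM (n = 4, SD) on day 0 (log2 fold change 3.11, adjusted p = 0.000134, edgeR) and was still higher on day 28 (log2 fold change 1.97, adjusted p = 0.0394, edgeR). Bmp2 was at 31.1 ± 17.4 CPM (n = 4, SD) on day 0 and 7.41 ± 3.97 CPM (n = 4, SD) on day 7 (log2 fold change -2.03, adjusted p = 0.00560, edgeR).

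Over all 18 libraries, the course of Ltbp4 was most like that of Esyt2 (r = 0.97), Sost (r = 0.96) and Marveld1 (r = 0.96), and Ltbp1 followed Susd5 (r = 0.96), Ltbp4 (r = 0.95) and Esyt2 (r = 0.95). Sost, a secreted Wnt inhibitor, was on the list of contractile smooth muscle markers. Ltbp2 was most like Col8a1 (r = 0.92), a short-chain collagen of the vessel wall, Sdc3 and Unc5b (both r = 0.90). Tgfbi was most like Trem1 (r = 0.91), Ltb4r1 (r = 0.91) and Bcl3 (r = 0.90), of which Trem1 and Ltb4r1 are receptors of myeloid cells. The closest gene to Tgfb2 was Col15a1 (r = 0.84), to Tgfb3 Vwf (r = 0.88), to Ltbp3 Arrdc2 (r = 0.87), to Tgfb1 Matk (r = 0.85), to Tgfbr2 Tet3 (r = 0.83) and to Tgfbr1 2900026A02Rik (r = 0.81). Within the members, Ltbp4 ran against Tgfbi (r = -0.88), and Ltbp2 was close to neither Ltbp4 (r = -0.25) nor Tgfbi (r = 0.05). These are Pearson correlations of log2 CPM across libraries that share days, depth and cell makeup, given as a description.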

How the data were processed

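MACE libraries of laser-dissected carotid tissue were grouped by the day in their labels. Reads were freed of PCR copies by their molecular identifiers and trimmed, then quantified with Salmon 1.9.0 on mm39, and the authors deposited the estimated counts of each gene in whole numbers. The authors also deposited a normalised signal made with DESeq2 1.36.0, used here only in an alternative fit. For Tgfb1 it holds a further factor of 0.124 to 1.27 per library, for Ltbp2 of 0.539 to 1.04.

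The counts went into edgeR 4.0.16 under R 4.3.3 (filterByExpr by day, TMM, quasi-likelihood test, Benjamini-Hochberg over 10312 genes, threshold 0.05). DESeq2 1.42.0 and limma 3.58.1 served as alternatives. The steps were tested on simulated data. CPM for correlations carried a prior count of 2, and count ratios 0.5 added per gene. Positions are from GENCODE M39 on GRCm39. Same-numbered replicates did not deviate together (median residual correlation -0.01 over 33 pairs). The 3 pairs of label numbers shared by days 0 and 21 had residual correlations of -0.01 to 0.06. Pairs sharing neither number ranged from -0.29 to 0.23, so 3 pairs cannot show whether shared numbers go together. The fit in limma put the correlation within a label number at 0.09.

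The members and the gene lists were chosen with earlier results of these data known. Beside all members, the 2 genes of each of 7 pathway lists with the smallest p over any day were named, lists of 5 or fewer calls in full, and the 3 most correlated genes of each member or the first of them. Of 12 cell type lists, summed levels or counts of calls are given. Libraries held 440675 to 878310 counts, so low genes such as Tgfb1 carry wide intervals. Single cells were not analysed here. An annotation result of 1 member is not reported here.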

Additional observations from a re-analysis of the deposited data

Results flagged for a closer look

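Of 30 sets of 4 libraries (10 members on days 0, 7 and 21), 3 held 1 library set apart from the others by Dixon's criterion, and chance alone marks about 1 in 20 such sets. Ltbp4 was at 345 CPM in day 7 replicate 4, where the other 3 libraries were at 81.7 to 95.2 CPM. Ltbp2 was at 866 CPM in day 21 replicate 2, where the others were at 556 to 579 CPM. Tgfb1 was at 49.1 CPM in day 0 replicate 1, where the others were at 14.9 to 17.1 CPM.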

How the results depend on the processing

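Over 2620 values of a member under an alternative, 2523 kept their side of the threshold, 67 lost the call and 30 gained one. The direction turned for 0 called values and for 64 that were not called. The values include those at thresholds of 0.1 and 0.01 on the main fit, where a direction cannot turn. Of the levels, 230 of 230 stayed within 1 SD. Most of these are day means with 1 library left out, which by arithmetic cannot move by 1 SD. For them the count shows nothing, and only the levels on library totals without factors could have moved. Beside 3 members called between days 14 and 7, DESeq2 and a fit with no filter on low counts gave 5, a fit of only the 2 days and a threshold of 0.01 gave 1, and leaving out 1 library gave 1 to 6. The calls among all genes moved the same way, from 171 in the main fit to 317 in DESeq2 and more still with no filter. The 2 days alone called 83 of all genes, that threshold called 42, and leaving out 1 library gave 26 to 318. For day 28 against day 21, with 0 called, DESeq2, no filter, the label number block in limma-voom and a threshold of 0.1 each gave 1, and leaving out 1 library 0 to 1. Here the calls among all genes went from 70 to 329, 373, 63 and 205 in that order, and to 15 to 410 with 1 library left out. For day 14 against day 0, with 1 called, no filter, the 2 days alone and the label number block in limma-voom gave 2, and leaving out 1 library 1 to 2. The all-gene calls were 641 in the main fit, 932, 461 and 674 in these fits, and 233 to 762 with 1 library left out. For day 21 against day 0, the 2 days alone and the label number block of 3 pairs gave 2, and leaving out 1 library 1 to 2, as for day 28 against day 0. On day 21 the main fit called 912 of all genes, these fits 828 and 749, and those without 1 library 613 to 1060. On day 28 the main fit called 138 of all genes, and those without 1 library 63 to 480. A threshold of 0.01 gave 3 in place of 7 for day 21 against day 7 and 3 in place of 6 for day 28 against day 7, where the 2 days alone gave 3 and leaving out 1 library 3 to 6. Among all genes that threshold gave 352 in place of 749 and 691 in place of 1490. For day 28 against day 7 the 2 days alone called 922 of all genes, and leaving out 1 library 1009 to 1717. The causes were not tested. With the replicate block, 7 members were called for day 7 against day 0, 6 for day 21 against day 7 and 5 for day 28 against day 7, with Tgfb2 on day 21 (adjusted p = 0.0688) and Tgfbr1 on day 28 (adjusted p = 0.0894, both edgeR) lost. This block called 1911, 683 and 1342 of all genes, in place of 2041, 749 and 1490. The median log2 fold change of all genes on day 7 was 0.07 with TMM, 0.10 with RLE factors and 0.12 with totals alone. Depth limits Tgfb1 most, with 5 to 56 counts.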
